A study of Ovis aries with 6 samples.

Results

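The genes described here are 10 components of the glucocorticoid response in sheep skeletal muscle, out of 23144 genes in the count table. They were taken by name, with no measured value in the rule, but the names were chosen with earlier results of these data known. They comprise 2 corticosteroid receptors (NR3C1 and NR3C2), 2 enzymes that interconvert active and inactive hormone (HSD11B1 and HSD11B2), 2 co-chaperones of the receptor (FKBP4 and FKBP5) and 4 further direct targets of the receptor (TSC22D3, SGK1, ZBTB16 and CEBPD). FKBP5 is itself a direct target, so the targets number 5. Of the 10 genes, 9 stood in the table under their own symbol, and HSD11B2 was read from the row HSD11K, which the table describes as the corresponding dehydrogenase and for which RefSeq gives that synonym. All 10 genes were among the 12506 that had enough reads to be tested.

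The libraries came from the longissimus dorsi, the long muscle of the back, of female sheep aged 1 year from 1 farm. Each of 6 animals gave 1 library. QHMM denotes Qianhua Mutton Merino, with 3 animals, and STH denotes the Small Tail Han breed, also with 3, and differences are given as STH vs. QHMM. Neither a hormone treatment nor a genetic alteration is described for either breed. The study's methods mention a fast before slaughter, when live weight was taken, and the 3 animals per breed were a small part of those raised. The methods name no difference in this fast between the breeds. All sheep were kept in the same environment and could feed freely.

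Cortisol, the main glucocorticoid of sheep, enters cells and binds the glucocorticoid receptor, which is held ready for the hormone in the cytoplasm by heat shock proteins and co-chaperones. The bound receptor moves to the nucleus and raises the transcription of target genes. FKBP4 favours this movement, whereas FKBP5 lowers the affinity of the receptor for the hormone and is induced by it, which closes a short negative feedback loop. In skeletal muscle, glucocorticoids are known for lowering glucose use and for promoting the breakdown of protein.

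The depth of the libraries lay between 10982191 and 14334544 reads on genes, and the TMM factors, which correct for composition, lay between 0.852 and 1.20. Of 10 skeletal muscle markers, 9 could be tested and TNNT3, a fast troponin T, was listed at 0 in all 6 libraries. In edgeR, 0 of these 9 were called, with 1 at an unadjusted p below 0.05, and DESeq2 and limma each called 1. TNNI2, another fast troponin gene, had 48742 to 119475 normalized counts, so the 0 of TNNT3 may reflect the annotation. A gene listed at 0 in all libraries, here or below, is therefore not taken as absent from the tissue. Over all 12506 tested genes, 2395 had an unadjusted p below 0.05 in edgeR. This is the background for each such count given below. Nothing in the sources says more of the replicates than that each is 1 animal, and each animal was sampled once. The edgeR p-values set the breed difference against the spread between libraries of a breed, estimated with the help of all tested genes. In that spread, differences between animals and between library preparations cannot be told apart.

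Among the 10 genes, 3 were up-regulated in STH and none down-regulated, by the thresholds of the study (an FDR below 0.05 in edgeR, with a change of more than 1.5-fold either way). These were FKBP5, CEBPD and ZBTB16, all direct targets of the receptor. Of all tested genes, 3.45% were called in either direction and 1.62% were up-regulated in STH. An unadjusted p below 0.05 in edgeR was reached by 6 of the 10 genes and by 2395 of the 12506 tested. The normalized counts of the breeds did not overlap for 5 of the 10 genes, which are the 5 direct targets, and in all of these STH was the higher breed. Over all tested genes, 24.7% did not overlap and 13.0% did so with STH higher. The median log2 fold change was 0.34 over the 10 genes and 0.02 over all genes, with estimates above 0 for 6 genes and below 0 for the other 4.

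**Figure D1:**
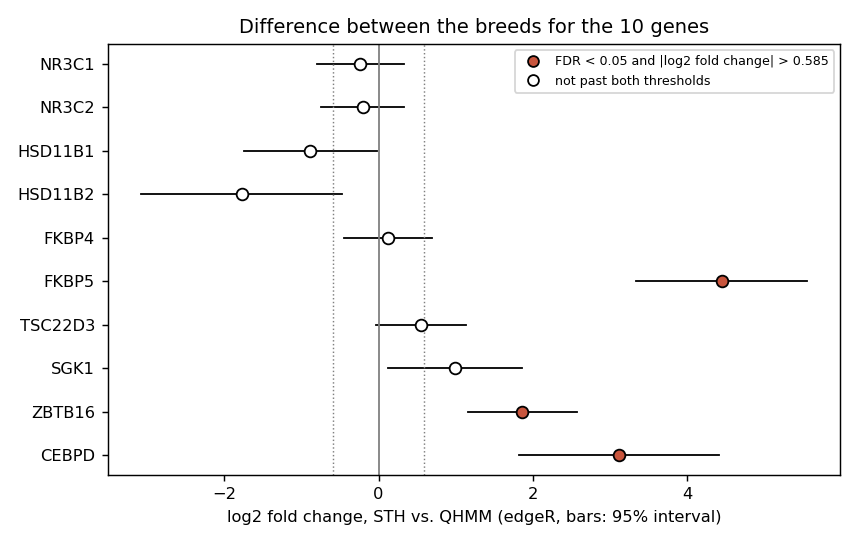
The log2 fold change of each of the 10 genes in STH vs. QHMM is plotted on the horizontal axis with its 95% interval from edgeR, filled where both thresholds were passed and open otherwise; dotted lines mark the minimum fold change. FKBP5 at 4.45, CEBPD at 3.12 and ZBTB16 at 1.86 are filled, and the intervals of NR3C1, NR3C2, FKBP4 and TSC22D3 include 0.

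The receptors did not pass the test in either direction. NR3C1, the glucocorticoid receptor, had normalized counts of 582, 511 and 679 in the 3 QHMM animals, given throughout in the order of their replicate numbers, and of 617, 550 and 338 in the 3 STH animals. The breeds overlapped, and the lowest value was that of STH replicate 3. Mean values were 591 ± 84.2 in QHMM and 502 ± 145 in STH (SD, n = 3 animals each), a log2 fold change of -0.23 (SE 0.26) with an adjusted p of 0.666 in edgeR. The 95% interval, from -0.80 to 0.33 on the log2 scale, sets the size of difference that 3 animals per breed leave possible.

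NR3C2, the mineralocorticoid receptor, binds cortisol as well as aldosterone. It had 250, 197 and 234 normalized counts in QHMM against 221, 147 and 221 in STH. The ranges overlapped, with STH replicate 2 the lowest, and the log2 fold change was -0.21 (SE 0.24), with an adjusted p of 0.693 in edgeR and an interval from -0.75 to 0.33. Per gene length, in RPKM, the level of NR3C1 was 5.86, 6.51 and 7.31 times that of NR3C2 in the QHMM libraries and 7.02, 9.40 and 3.84 times in the STH libraries. This ratio was thus both highest and lowest within STH, and its log2 means differed by -0.05 between the breeds (two-sided exact permutation test, p = 0.9, where the smallest p that 3 against 3 allows is 0.1).

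Both enzymes of hormone interconversion had few reads and neither passed the threshold. HSD11B1, which mostly regenerates cortisol from inactive cortisone in intact cells, had 52, 35 and 85 raw counts in QHMM and 33, 23 and 38 in STH, or normalized counts of 46.1, 40.7 and 85.6 and of 27.0, 24.4 and 42.2. The top STH animal, replicate 3, lay above the lowest QHMM animal, replicate 2. The means were 57.4 ± 24.5 and 31.2 ± 9.64. The log2 fold change was -0.88 (SE 0.39), with an interval from -1.74 to -0.03. In edgeR, the unadjusted p was 0.0447 and the adjusted p 0.247.

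HSD11B2, which inactivates cortisol, had 40, 25 and 11 raw counts in QHMM and 14, 3 and 6 in STH. At 3 counts, STH replicate 2 was at the floor below which a level is not distinguished from 0 here. After normalization the QHMM animals had 35.4, 29.0 and 11.1 counts and the STH animals 11.5, 3.18 and 6.67, so the breeds overlapped only in that QHMM replicate 3 fell just under STH replicate 1. The log2 fold change was -1.77 (SE 0.59), with an interval from -3.08 to -0.47, an unadjusted p of 0.0125 and an adjusted p of 0.131 in edgeR. The ratio of the 2 enzymes rested on these few counts and was not tested. In the RefSeq annotation of a later assembly, HSD11B1 overlaps LAMB3, which had 15 to 41 counts per library, and HSD11B2 overlaps ZDHHC1, which had 29 to 51. Only the start and end of each gene were compared, so whether exons are shared was not examined. Whether counting used the strand is not stated either, so it is not known how reads from any shared stretch were assigned. NR3C2 overlaps 2 long non-coding RNAs in the same annotation.

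Cells other than muscle fibres also express HSD11B1, and several of their markers were lower in STH. Of 7 adipocyte markers, 4 were down-regulated in STH and 0 up-regulated, with a median log2 fold change of -2.13. Over all 12506 tested genes, 229 were down-regulated. The 4 were the adipokine genes ADIPOQ (-2.13) and LEP (-4.21), and PLIN1 (-2.37) and CIDEC (-2.44), which encode lipid droplet proteins. Their adjusted p-values in edgeR were between 0.0143 and 0.0438, DESeq2 called 4 and limma 2, ADIPOQ and PLIN1. QHMM replicate 1 was the highest library for all 4, and without it CIDEC stood at -1.35 (adjusted p 0.0865 in edgeR) and LEP at -3.23 (0.107), neither called, while ADIPOQ (-1.63) and PLIN1 (-1.78) were still called. CIDEC was called in 1 and LEP in 2 of the 6 fits that left out 1 library, and PLIN1 was lost without STH replicate 2 (adjusted p 0.0513 in edgeR). LEP stood at -5.82 without STH replicate 1. The other 3 markers, FABP4 (-0.04), PPARG (-0.40) and CIDEA (-2.01), were not called, with adjusted p-values from 0.266 to 0.980 in edgeR. The normalized counts of the 7 summed to 1572 to 5258 in QHMM and 770 to 1127 in STH. ADIPOQ was the largest part, with 3172, 1093 and 1659 in QHMM and 458, 508 and 390 in STH. LEP was at 0 in STH replicate 2. Of 6 fibroblast markers, 0 were called in edgeR (3 at an unadjusted p below 0.05, DESeq2 3, limma 0), with a median of -1.06 and sums of 29076 to 49641 in QHMM and 10135 to 22623 in STH. Fewer cells of a type and less RNA per cell cannot be told apart in bulk tissue, and the part of these cells in the values of the 10 genes was not tested. Of 5 endothelial and of 5 leukocyte markers that could be tested, 0 were called by edgeR, DESeq2 or limma, and 0 had an unadjusted p below 0.05.

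FKBP5 showed the largest difference of the 10 genes. Its raw counts in QHMM were 130, 393 and 250, against 4648, 7414 and 5652 in STH. As counts scaled to the reads on genes (CPM), these amounted to 9.07, 30.3 and 20.2 for QHMM and 355, 675 and 417 for STH. The 95% Wilson intervals, which cover counting error only, reached at most 33.4 CPM in QHMM and began at 345 CPM in STH.

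After normalization, FKBP5 had 115, 457 and 252 counts in QHMM against 3806, 7860 and 6284 in STH. The lowest STH animal, replicate 1, was 8.34 times the highest QHMM animal, replicate 2. The means were 275 ± 172 and 5983 ± 2044 (SD, n = 3 animals each), a 21.8-fold difference with a 95% interval from 10.1 to 47.1, or a log2 fold change of 4.45 (SE 0.50), with an adjusted p of 0.00345 in edgeR. Among the 12506 genes tested, it ranked 11 by p and 8 by the size of the fold change. Ranked by RPKM among the genes of each library, FKBP5 came at places 8678, 4261 and 6057 in QHMM and at places 701, 400 and 553 in STH.

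FKBP4, its close relative, had normalized counts of 3602, 3799 and 2398 in QHMM and 3259, 3150 and 4278 in STH. The highest value was that of STH replicate 3 and the lowest that of QHMM replicate 3, and the breeds overlapped. The log2 fold change of FKBP4 was 0.13 (SE 0.26), with an adjusted p of 0.840 in edgeR and an interval from -0.45 to 0.70, and its sign turned to -0.053 without QHMM replicate 3 and to -0.025 without STH replicate 3.

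The balance of the 2 co-chaperones can be read within each library, where scaling between libraries plays no part. Per gene length, FKBP5 stood at 1.67%, 6.30% and 5.50% of the RPKM of FKBP4 in the QHMM libraries and at 61.2%, 131% and 77.0% in the STH libraries. In QHMM, FKBP4 therefore exceeded FKBP5 in all animals, and in STH replicate 2 the order was turned. The log2 ratio differed by 4.46 between the breeds, with every STH library above every QHMM library (two-sided exact permutation test, p = 0.1, the smallest that the design allows, and 0.2 after adjustment over the 2 ratios tested). Among the 11 other FKBP genes tested, FKBP4 included, 0 were called by edgeR, DESeq2 or limma, 2 had an unadjusted p below 0.05 in edgeR, and the log2 fold changes ran from -0.63 for FKBP10 to 1.21 for FKBPL. In the RefSeq annotation of a later assembly, FKBP5 overlaps a long non-coding RNA, with the same limit as for the enzymes.

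**Figure D2:**
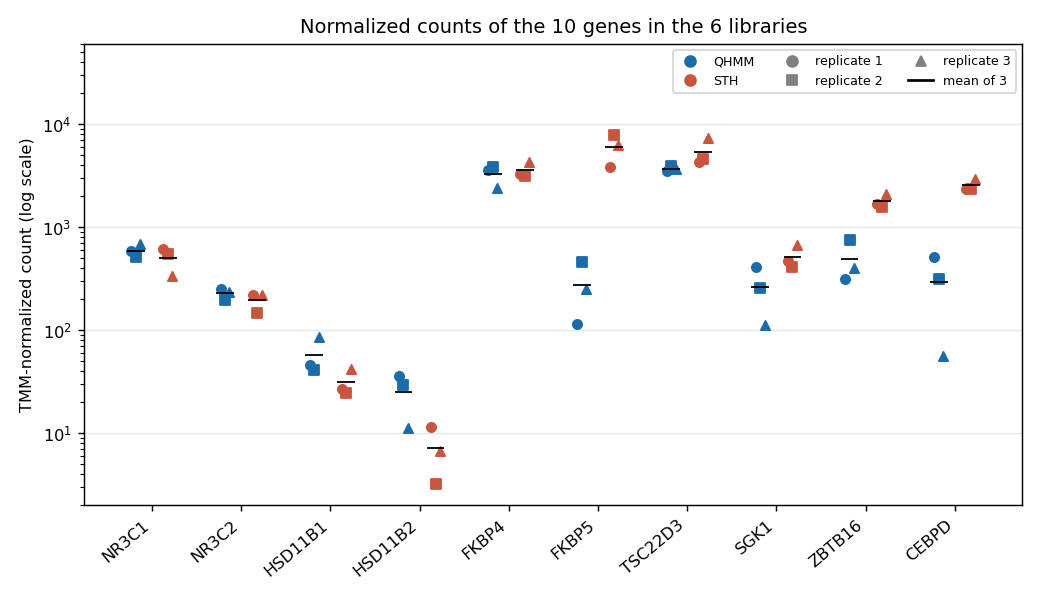
TMM-normalized counts of the 10 genes are plotted on a log axis, with QHMM in blue, STH in red, a symbol for each replicate number and a bar at the mean of 3 animals. The STH points lie above the QHMM points for FKBP5, TSC22D3, SGK1, ZBTB16 and CEBPD, by the narrowest margin for SGK1, and the breeds overlap for the other 5 genes.

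Of the other direct targets, CEBPD and ZBTB16 were called and TSC22D3 and SGK1 were not. CEBPD encodes a transcription factor of the C/EBP family that is induced early by glucocorticoids and by inflammatory signals. It had 509, 310 and 56.4 normalized counts in QHMM against 2325, 2341 and 2943 in STH. The QHMM animals differed among themselves by a factor of 9.03, and the STH animals by 1.27. The lowest STH animal was still 4.57 times the highest QHMM animal, and the means were 292 ± 227 and 2536 ± 352. The fold was 8.67, with an interval from 3.53 to 21.3, and the log2 fold change was 3.12 (SE 0.59), with an adjusted p of 0.0213 in edgeR. The call was lost without QHMM replicate 2, where the adjusted p was 0.0705 at a log2 fold change of 3.16. Without QHMM replicate 1 the log2 fold change was 3.77, and the gene was still called.

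ZBTB16, also known as PLZF, encodes a zinc finger transcription repressor. It had normalized counts of 315, 745 and 404 in QHMM and 1671, 1551 and 2105 in STH. Every STH animal exceeded every QHMM animal, the closest pair, STH replicate 2 and QHMM replicate 2, by a factor of 2.08. The means were 488 ± 227 and 1776 ± 291, a 3.64-fold difference with an interval from 2.23 to 5.95 and a log2 fold change of 1.86 (SE 0.32), with an adjusted p of 0.0154 in edgeR. The adjusted p was 0.0562 without QHMM replicate 1, at a log2 fold change of 1.61, and 0.0658 without QHMM replicate 3, at 1.75.

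TSC22D3, also known as GILZ, encodes a leucine zipper protein that carries part of the anti-inflammatory action of glucocorticoids. QHMM animals had 3471, 3895 and 3658 normalized counts of it, and STH animals 4240, 4627 and 7341. The QHMM animals lay close together, and STH replicate 3 stood above all others. The lowest STH animal exceeded the highest QHMM animal by a factor of 1.09. The log2 fold change was 0.56 (SE 0.26), with an interval from -0.03 to 1.14 and an adjusted p of 0.282 in edgeR.

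SGK1, a serum- and glucocorticoid-induced kinase that acts on ion transport and on growth signals, had normalized counts of 412, 254 and 113 in QHMM and 471, 413 and 665 in STH. The ranges were parted by almost nothing, 412 in QHMM replicate 1 against 413 in STH replicate 2. The means were 260 ± 150 and 516 ± 132, with a log2 fold change of 0.99 (SE 0.39), an interval from 0.12 to 1.86 and an adjusted p of 0.200 in edgeR.

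The animals of a breed did not take the same order for every target. In QHMM, FKBP5 and ZBTB16 were highest in replicate 2 and lowest in replicate 1, whereas CEBPD and SGK1 were highest in replicate 1 and lowest in replicate 3. In STH, replicate 3 was the highest for TSC22D3, SGK1, ZBTB16 and CEBPD, and it was also the animal with the least NR3C1. FKBP5 was highest in STH replicate 2. In RPKM, which carries no TMM factor, replicate 1 was instead the highest STH animal for ZBTB16 (76.9 against 69.0 in replicate 3) and for CEBPD (265 against 239), while the other orders given here held. With 3 animals per breed, these orders are descriptions of single animals.

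Levels can be compared between genes only per gene length, so the RPKM values were used for the order of the 10 genes. In QHMM, the order of mean RPKM was TSC22D3 (135), FKBP4 (125), CEBPD (26.5), NR3C1 (19.1), ZBTB16 (17.5), SGK1 (6.24), FKBP5 (5.35), HSD11B1 (3.30), NR3C2 (2.91) and HSD11B2 (1.004). The ranges of neighbours were apart only between FKBP4 and CEBPD, between ZBTB16 and SGK1, and between NR3C2 and HSD11B2. In STH, the order was CEBPD (250), TSC22D3 (209), FKBP4 (147), FKBP5 (130), ZBTB16 (70.5), NR3C1 (18.1), SGK1 (13.2), NR3C2 (2.71), HSD11B1 (1.85) and HSD11B2 (0.320). There, CEBPD overlapped TSC22D3, FKBP4 overlapped FKBP5, and NR3C1 overlapped SGK1, while the ranges of the other neighbours were apart.

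By this scale, the mean of FKBP5 moved from percentile 52.4 of the tested genes in QHMM to percentile 95.8 in STH, which is where FKBP4 stood in QHMM. CEBPD moved from percentile 84.6 to 97.6 and ZBTB16 from 78.8 to 92.9. TSC22D3 was among the more abundant genes in both breeds, at percentile 96.1 in QHMM and 97.2 in STH. NR3C1 stood at percentiles 79.8 and 77.5.

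**Figure D3:**
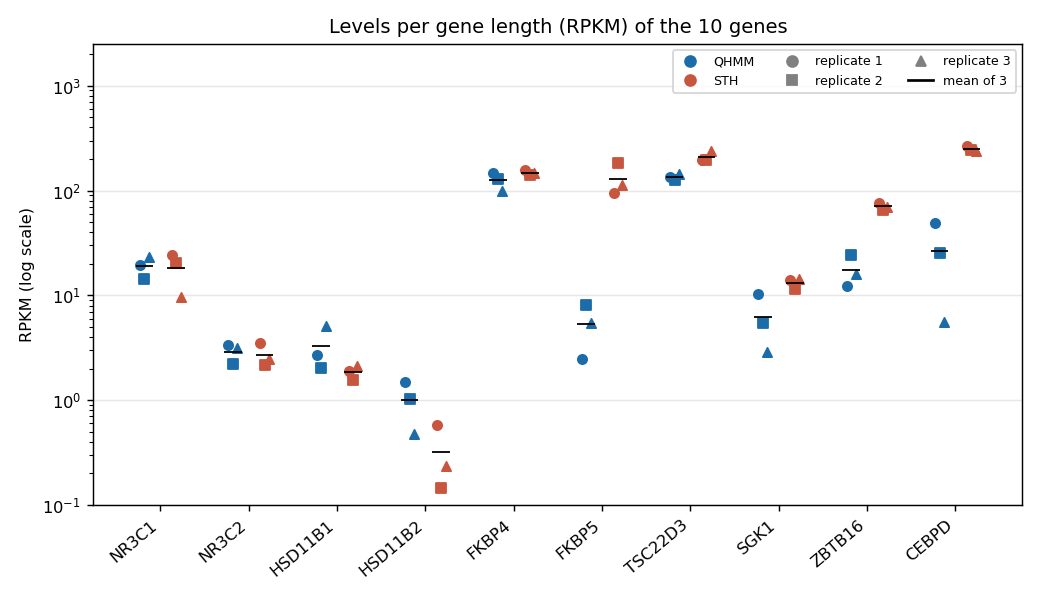
RPKM of the 10 genes, the authors' values per gene length and library total, are plotted on a log axis for QHMM (blue) and STH (red), with bars at the mean of 3 animals. FKBP5 rises from a mean of 5.35 to 130, close to the 147 of FKBP4 in STH, while NR3C1 stands at 19.1 and 18.1.

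The receptor depends on a wider set of partners, of which 3 lists were examined. Of 14 genes of the chaperone cycle, which folds and releases the receptor, 13 could be tested and edgeR called 0, with 3 at an unadjusted p below 0.05. DESeq2 called 1, HSP90AB1, the constitutive cytosolic HSP90, whose edgeR log2 fold change was 0.91 with an adjusted p of 0.106, and limma called 0. The median log2 fold change of the list was 0.17. Its lowest value, -2.20 for the HSP40 gene DNAJB1, came with 12206 normalized counts in QHMM replicate 1 and with 523 to 1683 in the other libraries; these 2 genes were singled out after their values were seen.

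Of 13 cofactors of the receptor, the coactivators and corepressors that link it to chromatin, all could be tested. Of these, 0 were called by edgeR, DESeq2 or limma, with 1 at an unadjusted p below 0.05 in edgeR, and the log2 fold changes lay between -0.85 and 0.30, with a median of 0.04. Of 8 genes of hormone supply, transport and clearance, 5 were listed at 0 in all libraries, among them the binding globulin gene SERPINA6 and the adrenal enzyme gene CYP11B1. For the 3 that could be tested, 0 were called by any of these tools and 0 had an unadjusted p below 0.05. H6PD, which supplies the cofactor of HSD11B1, had a log2 fold change of -0.00 (SE 0.24).

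Genes that respond to glucocorticoids in muscle or other tissues, beyond the 5 direct targets above, were gathered from general knowledge into a list of 30. Of these, 28 were found in the table, IGFBP1 and TAT were listed at 0 in all libraries, and 26 were tested. In edgeR, 14 were up-regulated in STH and 0 down-regulated, 24 had estimates above 0, and the median log2 fold change was 1.54. The ranges of the breeds were apart with STH higher for 17 of the 26. The share of all tested genes up-regulated in STH, 1.62%, and the share apart with STH higher, 13.0%, are the background for these counts. The list was written with earlier results of these data known, so its direction is not independent of them. DESeq2 called 17 of its genes. Limma called 14, but not the same 14 as edgeR, with PER1 and CEBPB in place of KLF9 and FBXO32.

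The 4 called genes with the largest fold changes were PDK4, TRIM63, FOXO1 and SESN1. PDK4, a kinase that restrains the entry of glucose carbon into the citric acid cycle, had normalized counts of 470, 2534 and 163 in QHMM and 33753, 40725 and 38370 in STH. The QHMM animals were widely spread, with replicate 2 the highest, and the STH animals were close together. The log2 fold change of PDK4 was 5.16 (SE 0.86), with an adjusted p of 0.0137 in edgeR. It was 6.89 without QHMM replicate 2, and the call was lost without QHMM replicate 1 (adjusted p 0.0506 at 4.78) and with robust dispersions (0.0762).

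TRIM63, or MuRF1, a ubiquitin ligase that marks muscle proteins for degradation, had 3365, 3479 and 2675 normalized counts in QHMM and 16614, 60506 and 32412 in STH. Here the STH animals were the more spread, with replicate 2 the highest, and the log2 fold change was 3.52 (SE 0.44), with an adjusted p of 0.00489 in edgeR, and 2.94 without STH replicate 2, where it was still called. FOXO1, a transcription factor that insulin signalling keeps out of the nucleus, had 262, 214 and 134 normalized counts in QHMM and 955, 2366 and 1832 in STH, a log2 fold change of 3.08 (SE 0.37) with an adjusted p of 0.00450 in edgeR. Every STH animal was above every QHMM animal for both genes.

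SESN1, a stress-induced inhibitor of mTORC1 signalling, had 493, 582 and 783 normalized counts in QHMM and 3814, 6662 and 4380 in STH. The log2 fold change was 2.999 (SE 0.30), and the adjusted p of 0.00231 was the lowest of the list in edgeR. The other called genes were FBXO32, MT2A, GLUL, CDKN1A, FOXO3, ANGPTL4, LPIN1, KLF9, PIK3R1 and KLF15, and the 14 together had log2 fold changes from 1.46 to 5.16 and adjusted p-values up to 0.0494. FBXO32 and KLF9 stood at 10043 and 3648 normalized counts in STH replicate 2. In STH replicates 1 and 3, FBXO32 had 2046 and 1695 and KLF9 had 1179 and 1270. GLUL was read from a RefSeq gene number, and its value is uncertain because the genome holds a near-identical copy. The 12 that edgeR did not call include the clock gene PER1, which DESeq2 and limma called, and the phosphatase gene DUSP1. Their log2 fold changes lay between -0.94 and 1.50, with adjusted p-values of at least 0.0595 in edgeR. Several of the called genes, TRIM63, FBXO32, PDK4 and SESN1 among them, are also known targets of FOXO factors, which fasting activates in muscle. Whether FOXO factors or the fast had a part in these values was not tested.

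The count of 14 changed when 1 library was left out, as did the count over all tested genes, which was 432 with all libraries. Without QHMM replicates 1, 2 and 3 in turn, the list had 7, 9 and 7 calls, and all genes 131, 208 and 150. Without STH replicates 1, 2 and 3 in turn, the list had 14, 9 and 12 calls, and all genes 535, 183 and 329. In all of these fits, FKBP5 was called, with log2 fold changes between 4.06 and 5.03.

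**Figure D4:**
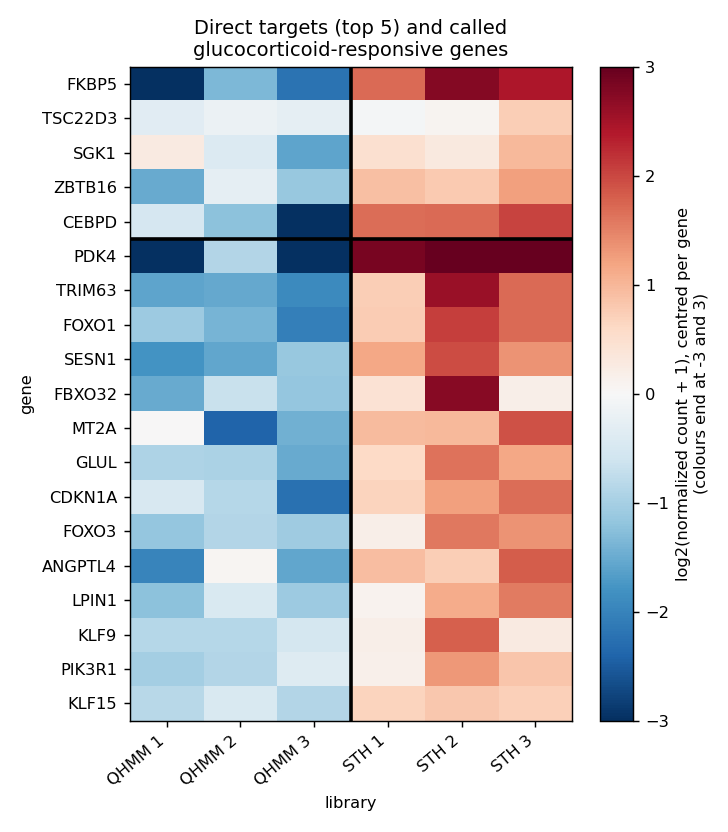
Each row is a gene and each column a library; the colour gives the log2 of the normalized count plus 1 after the mean of the gene over the 6 libraries is taken away, with colours ending at -3 and 3. The top 5 rows are the direct targets, of which TSC22D3 varies least, and below the line are the 14 called genes of the wider list, chosen for display because they were called.

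The paralogs of the 10 genes show how far the differences extended to related genes. Of 27 genes listed as paralogs, among them other C/EBP, TSC22, SGK, FKBP and steroid receptor genes, 24 could be tested. Of these, edgeR called 0, with 8 at an unadjusted p below 0.05, against 2395 of the 12506 genes tested. DESeq2 called 2 (CEBPB and CEBPZ) and limma 1 (CEBPB). CEBPZ was listed by its name and is not a member of the C/EBP family. The median log2 fold change was -0.34, and the values ran from -1.25 for CEBPA to 1.50 for CEBPB, a gene that is also in the wider list above. CEBPA, a C/EBP gene of adipocytes, and CEBPD thus had estimates of opposite sign, and that of CEBPA did not pass the threshold, with an adjusted p of 0.184 in edgeR. TSC22D1, the relative of TSC22D3, had a log2 fold change of -0.72 with an adjusted p of 0.182 in edgeR. The paralogs in these sentences were singled out after their values were seen.

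**Figure D5:**
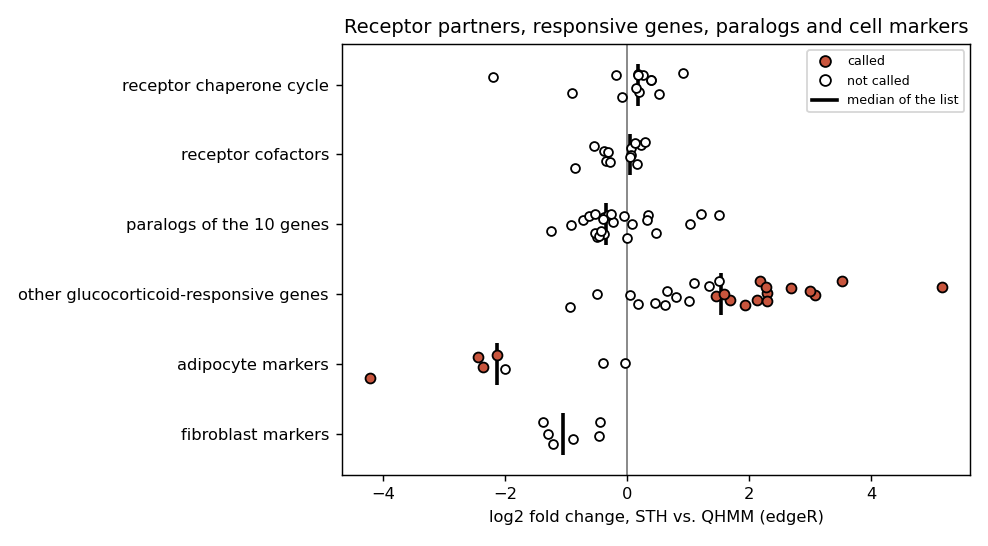
Each point is a tested gene of a list, placed by its edgeR log2 fold change in STH vs. QHMM, red where called and open where not, with a thick line at the median of the list; the vertical scatter within a row has no meaning. The median is 1.54 for the wider list of glucocorticoid-responsive genes, 0.17 for the chaperone cycle, 0.04 for cofactors, -0.34 for paralogs and -2.13 for adipocyte markers.

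For each of the 3 called genes, the tested genes with the most similar pattern were found by the root mean square difference of log2 CPM over the 6 libraries, after each gene was centred on its own mean. For FKBP5, the nearest were ARRDC2 (0.66), SH2D4A (0.73) and DPP6 (0.84), against a median of 2.40 over all genes. Genes picked as nearest lie below such a median by construction, so here and below the median gives only the scale. ARRDC2, an arrestin-domain gene, had means of 303 ± 321 normalized counts in QHMM and 3552 ± 1382 in STH, a log2 fold change of 3.56 (SE 0.66) that was 4.92 without QHMM replicate 2 and was not called without QHMM replicate 1 or 3 (adjusted p 0.0512 and 0.0701 in edgeR). DPP6 was at 0 counts in all QHMM libraries with a mean of 22.9 in STH. For ZBTB16, the nearest were an IRF4-like gene (LOC101112411, 0.16), the adiponectin receptor gene ADIPOR2 (0.24) and RGCC (0.26), against a median of 1.10.

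For CEBPD, the nearest were MYC (0.44), XIRP1 (0.56) and SIK1 (0.59), against a median of 2.05. XIRP1, which encodes an actin-binding protein of striated muscle, had a log2 fold change of 2.32 (SE 0.53) and an adjusted p of 0.0416 in edgeR, and it was called in 1 of the 6 fits that left out 1 library, the one without QHMM replicate 3. MYC had a log2 fold change of 2.42 (SE 0.64) and SIK1, a kinase gene, of 1.88 (SE 0.64), and neither passed the threshold, with adjusted p-values of 0.0667 and 0.139. The 3 called genes had no nearest gene in common. The measure keeps the size of the fold change, in which the 3 genes differed, so a shared neighbour was unlikely beforehand. The absence of one therefore says nothing about their regulation.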

How the data were processed

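Poly(A) RNA was read on an Ion Proton instrument. The authors kept unique mapped reads on the sheep genome Oar 3.1 and deposited raw counts per gene, together with RPKM values, which are scaled by gene length and library total; the aligner, the counter and the annotation are not given in the sources used here. The 10 genes and all lists were chosen with earlier results of these data known. Symbols missing from the table were looked up in RefSeq (133 of 139 listed symbols found).

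Counts were tested in R 4.3.3 with edgeR 4.0.16 (TMM, filterByExpr, glmQLFit and glmQLFTest, breed as the only term), with Benjamini-Hochberg adjustment over 12506 genes. EBSeq, the program of the methods, was not installed. SEs came from the fold change and the F statistic, and a level of at most 3 counts was taken as the floor. Ratios were compared with exact permutation tests in SciPy 1.17.1. Named were the 10 genes, up to 4 called genes per direction and list with the largest fold changes, and the 3 nearest patterns of each called gene, and other names are those of whole groups of calls or were chosen after their values were seen. Alternatives were DESeq2 1.42.0, other normalization, filters and dispersions, the replicate number as a block, limma 3.58.1 on the log2 of RPKM plus 1 or plus 0.1 (keeping genes that reached an RPKM of 1 in 3 or more libraries, or all genes), and leaving out each library. The fits were tested on simulated counts.

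Depth was between 10982191 and 14334544 reads on genes. Gene overlaps were read from RefSeq positions on a later sheep assembly, of which no coordinates are given, and sequences were not used here.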

Additional observations from a re-analysis of the deposited data

How the results depend on the processing

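FKBP5 was called in all 15 alternatives. ZBTB16 was called in 13, all but the 2 that left out QHMM replicate 1 or 3, and CEBPD in 12. CEBPD was lost with robust dispersions (adjusted p 0.0858 in edgeR), with limma on RPKM without a filter (0.0681) and without QHMM replicate 2. The other 7 genes were called in 0 alternatives, HSD11B2 having 12. The count of called genes among the 10 was 2 or 3 throughout. Of 395 values of single genes under the alternatives, 342 kept their direction and call, 45 lost and 6 gained the call, and 2 changed sign, both of FKBP4, whose log2 fold change ranged from -0.053 to 0.25 when 1 library was left out (-0.053 without QHMM replicate 3, -0.025 without STH replicate 3). The difference between the breeds in the log2 ratio of NR3C1 to NR3C2, STH minus QHMM, ranged from -0.33 to 0.31 when 1 library was left out. This difference was 0.03 without QHMM replicate 3 and 0.31 without STH replicate 3.

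Over all genes, 432 calls became 975 with DESeq2, 806 without a filter, 78 with limma on RPKM without a filter, and 131 to 535 when 1 library was left out. The 14 calls in the wider list of glucocorticoid-responsive genes became 9 with robust dispersions, 7 with limma on RPKM without a filter, and 7 to 14 when 1 library was left out. DESeq2 called 1 gene of the chaperone cycle and 2 genes listed as paralogs, against 0 in edgeR. Of the genes listed as paralogs, the fit with no filter called 2 and limma on RPKM 1 with either pseudocount. The causes of these changes were not tested. Nothing in the sources says that equal replicate numbers pair animals. Deviations of same-numbered libraries from their breed means had correlations of 0.226, -0.038 and -0.130. Those of differently numbered libraries ran from -0.263 to 0.287. With 3 animals per breed, these values cannot decide whether a pairing exists. With the replicate block, 457 genes, 3 of the 10 genes and 13 of the wider list were called.

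At these depths HSD11B2 was at the floor in 1 library, and with 3 animals per breed the intervals of NR3C1 and NR3C2 allow differences of up to 0.80 and 0.75 on the log2 scale.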
